A study of Mus musculus with 34 samples.

Results

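The distal protocadherin beta genes are Pcdhb13 to Pcdhb22, the 10 higher-numbered members of the mouse Pcdhb cluster. They were taken by symbol from a table of 29876 gene entries, whatever their level, and are described in their order along the chromosome. The other 12 members of the cluster, Pcdhb1 to Pcdhb12, are called proximal here.

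Protocadherins are cell surface proteins of the cadherin family that bind copies of themselves on a neighbouring cell. Each Pcdhb gene has its own promoter and encodes a whole protein, unlike the Pcdha and Pcdhg genes beside it, whose variable exons are spliced to shared constant exons. Single neurons are known to transcribe only some of the clustered genes, through promoter choice that involves DNA methylation, CTCF, cohesin and distant enhancers, and the resulting combinations are known to serve self-recognition of dendrites and axons.

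In the build mm9, the 10 genes lie on chromosome 18 between positions 37602171 and 37681073, a stretch of 78903 bases. Pcdhb13 (37602171 to 37605863) and Pcdhb14 (37607311 to 37610748) come first and are followed by the widest gap of the series, 22451 bases. Pcdhb15 begins at 37633200, Pcdhb16 at 37637422, Pcdhb17 at 37644675, Pcdhb18 at 37649119, Pcdhb19 at 37656652, Pcdhb20 at 37663918 and Pcdhb21 at 37673306, and Pcdhb22 closes the stretch at 37678007 to 37681073. Annotated spans ran from 2712 bases for Pcdhb21 to 5270 bases for Pcdhb16, and the deposited length equalled the RefSeq length for 9 of the 10. The genes are near-identical copies over parts of their coding sequence, so the authors' counting may have divided some reads between them. Of the 280 deposited values of the members, 11 were not whole numbers.

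Total RNA had been sequenced from 28 libraries of mouse cell lines with altered copy number of 7qF3, the region that matches human 16p11.2. All carried the background strain label C57BL/6N. Control cells had the genotype label 129Sv +/+, deletion cells 129Sv df/+ (heterozygous deletion), and duplication-deletion cells 129Sv df/dp, which carry a duplication and a deletion. Embryonic stem cells (ESCs) gave 3, 3 and 3 libraries of these genotypes, neural progenitor cells (NPCs) at day 5 gave 5, 3 and 3, and immature dopaminergic neurons at day 16 gave 4, 2 and 2. The lines went through an epiblast-like stage of 4 weeks before they were differentiated, per the labels. How many lines or clones stand behind a genotype, and whether libraries came from separate cultures, is not given in the sources used here, so a p-value here speaks only of the scatter among libraries, which may be technical. The description label of the duplication-deletion NPCs names the deletion alone, and the title and genotype labels, which name both, were followed.

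Depth ran from 5578151 counts in a deletion ESC library to 78814033 in a control NPC library. The median of 15 genes of the interval lay at 36.2% to 73.3% of the stage's control mean in the deletion libraries and at 81.8% to 125% in the duplication-deletion libraries. The summed level of 8 pluripotency markers was 1600 to 2600 CPM (counts scaled by library size to a common total) in ESCs and 2.59 to 5.5 CPM in NPCs and neurons. Of the 10 pan-neuronal markers, the sum was 176 to 230 CPM in ESCs, 580 to 2350 in NPCs and 2020 to 4360 in neurons. Dopaminergic markers were present in every neuron library, with Th (tyrosine hydroxylase) at a mean of 73.0 CPM in control, 22 in deletion and 111 in duplication-deletion neurons, but the mesenchymal collagen Col3a1 stood at 716 CPM in control neurons, so the cultures held more than neurons. In such bulk samples, fewer cells of a type and less RNA per cell cannot be told apart.

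In ESCs the distal genes were nearly silent. None of the 10 passed the filter on low counts over all ESC libraries, so the ESC genotypes were not compared for them there. Without the filter, 9 of the 10 could be tested, and edgeR called 0 in deletion against control, 0 in duplication-deletion against control and 0 between the mutants (0% of all genes each). At an unadjusted p under 0.05 the counts were 0 (1.07% of all genes), 0 (0.406%) and 1 (Pcdhb22, 1.11%). The 3 control ESC libraries together held 0 counts of Pcdhb13, 4 of Pcdhb14, 3 of Pcdhb15, 2 of Pcdhb16, 2 of Pcdhb17, 15 of Pcdhb18, 1 of Pcdhb19, 10 of Pcdhb20, 0 of Pcdhb21 and 8 of Pcdhb22. Over all 9 ESC libraries, the 10 genes together gave 0 to 35 counts per library, and Pcdhb13 had 0 counts in each. Their summed level was 0.595, 0.437 and 0.304 CPM in the control libraries. It was 0.927, 0.0673 and 0 CPM in the deletion libraries, the last being the shallowest of the 28, and 0.503, 0.949 and 1.17 CPM in the duplication-deletion libraries. The genotypes therefore overlapped at a level close to that of single reads.

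**Figure D1:**
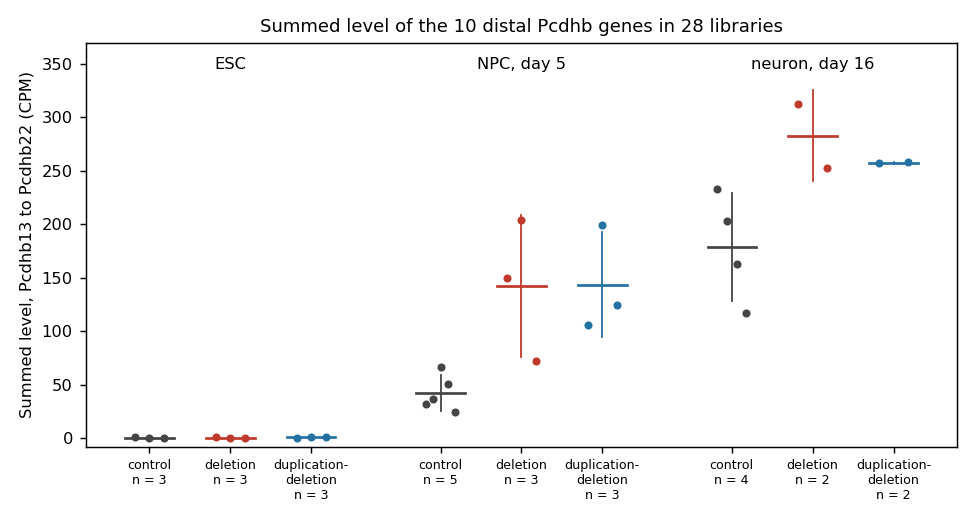
Summed level of the 10 distal Pcdhb genes in each library (CPM, linear axis), by stage and genotype. Points are libraries, horizontal lines are group means and vertical lines are SD. Control NPCs sit between 24.7 and 66.3 CPM, below every mutant NPC library (72.1 to 204 CPM), while the neuron groups lie between 117 and 313 CPM.

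Control NPCs held reads of all 10 genes. The summed level was 32.0, 36.4, 66.3, 50.8 and 24.7 CPM in the 5 libraries (42.1 ± 16.6, SD, n = 5). Relative to control ESCs, all 10 members rose by edgeR's quasi-likelihood test, against 21.0% of all genes tested that rose. The fitted log2 fold change was 9.28 ± 0.589 (SE) for Pcdhb19 (adjusted p = 1.68e-07) and 4.85 for Pcdhb20, and the median over the members was 6.83 against 0.01 over all genes. These fitted values rest on a handful of ESC counts and depend on the prior count. From the counts, with a floor of 3 counts over the control ESC group, the level per total count was at least 17.4-fold higher in NPCs for Pcdhb13 and at least 115-fold higher for Pcdhb21. For the other 8 the ratio of NPC to ESC ran from 36.2 for Pcdhb20 to 921 for Pcdhb19, the latter with a 95% counting interval of 165 to 36400 because 1 ESC count stands under it.

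Pcdhb13 was the weakest of these calls. It was at 0, 0.277, 0.978, 1.02 and 0 CPM in the 5 control NPC libraries, so 2 of them held no read of it. Its log2 fold change over ESCs was 7.52 ± 2.46 (SE, adjusted p = 0.028), and the call was lost with limma-voom (adjusted p = 0.291), when any 1 of the 3 control ESC libraries was left out (0.058 to 0.0751) and without control NPC replicate 3 (0.0505).

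Per kilobase of annotated length, the members of control NPCs fell in the order Pcdhb19 (1.71 CPM per kb), Pcdhb17 (1.71), Pcdhb22 (1.55), Pcdhb18 (1.3), Pcdhb16 (1.28), Pcdhb21 (1.1), Pcdhb20 (0.881), Pcdhb15 (0.825), Pcdhb14 (0.467) and Pcdhb13 (0.123). Neighbours in this order lay within the SD over libraries except for Pcdhb14 and Pcdhb13. The 2 genes at the proximal edge, which stand apart from the others on the chromosome, were thus the 2 lowest. The highest levels belonged to genes in the middle and at the distal edge.

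**Figure D2:**
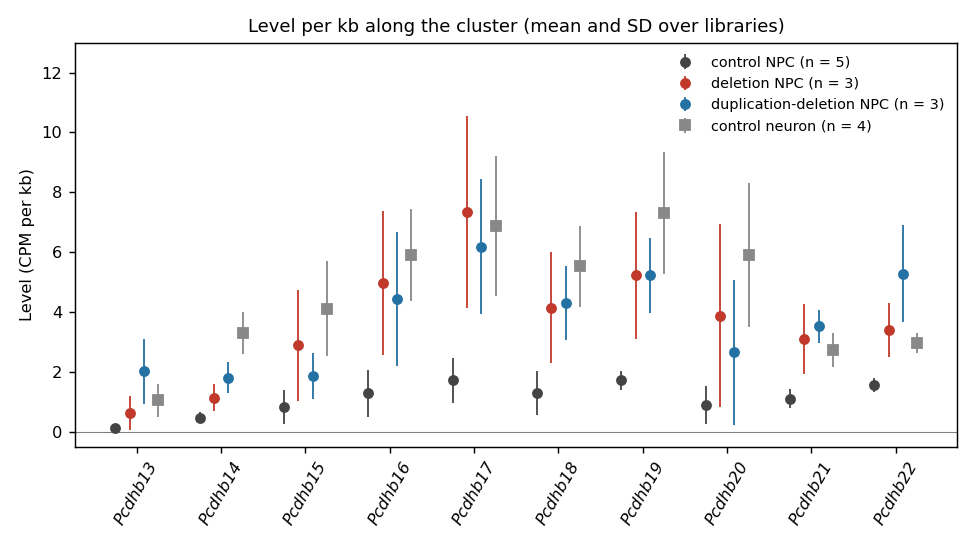
Level per kilobase (CPM per kb) of each distal Pcdhb gene in its order along the cluster, in NPCs of the 3 genotypes and in control neurons. Points are group means and bars SD over libraries. Pcdhb13 is the lowest in control cells of both stages, and Pcdhb17 is the highest or the next highest in each group shown.

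In control neurons the distal genes stood higher again. The summed level was 233, 203, 163 and 117 CPM (179 ± 50.1, SD, n = 4), 4.26 times the control NPC mean, and no neuron library overlapped with an NPC library. Relative to control NPCs, 8 of the 10 members rose, against 23.2% of all genes tested that rose, and the median log2 fold change over the members was 2.18 against 0.1 over all genes.

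Pcdhb14 had the largest of the called rises. It went from 1.68, 0.952, 2.57, 1.71 and 1.12 CPM in control NPCs to 13.3, 12.7, 11.5 and 7.95 CPM in control neurons, a log2 fold change of 2.84 ± 0.441 (SE, adjusted p = 0.000166). Pcdhb19 went from 6.80, 8.02, 9.05, 10.1 and 6.33 CPM to 44.6, 40.1, 29.7 and 23.4 CPM (2.12 ± 0.273, adjusted p = 3.45e-05). Pcdhb20 rose by 2.77, Pcdhb15 by 2.34, Pcdhb16 by 2.23, Pcdhb18 by 2.11 and Pcdhb17 by 2.03 on the log2 scale.

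The distal edge moved less. Pcdhb21 went from 2.30, 3.91, 3.84, 2.85 and 2.01 CPM to 8.54, 8.88, 6.44 and 5.76 CPM (1.34 ± 0.36, SE, adjusted p = 0.00996). Pcdhb22 stood at 4.10, 5.00, 5.68, 4.03 and 4.98 CPM in NPCs and 10.5, 9.08, 8.80 and 7.93 CPM in neurons, and its difference of 0.96 ± 0.409 missed the threshold (adjusted p = 0.0737) although no library overlapped. Pcdhb13 at the other edge missed it too, at 3.08 ± 1.17 (adjusted p = 0.0504), with 5.95, 4.90, 3.10 and 1.42 CPM in neurons. With RLE scaling, DESeq2 (27.4% of all genes higher) or limma-voom (48.4% in either direction) all 10 were past the threshold.

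The order per kilobase shifted accordingly. In control neurons it was Pcdhb19 (7.31 CPM per kb), Pcdhb17 (6.88), Pcdhb20 (5.91), Pcdhb16 (5.9), Pcdhb18 (5.52), Pcdhb15 (4.11), Pcdhb14 (3.3), Pcdhb22 (2.96), Pcdhb21 (2.73) and Pcdhb13 (1.04). Among neighbours, the SDs over libraries left apart only Pcdhb21 and Pcdhb13. Pcdhb22 went from the third place in NPCs to the eighth, and its share of the members' summed CPM from 12.6% to 5.28%. Pcdhb21 went from 7.49% to 4.22% and Pcdhb14 from 3.93% to 6.45%, while Pcdhb19 took 20.5% in NPCs and 19.3% in neurons.

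**Figure D3:**
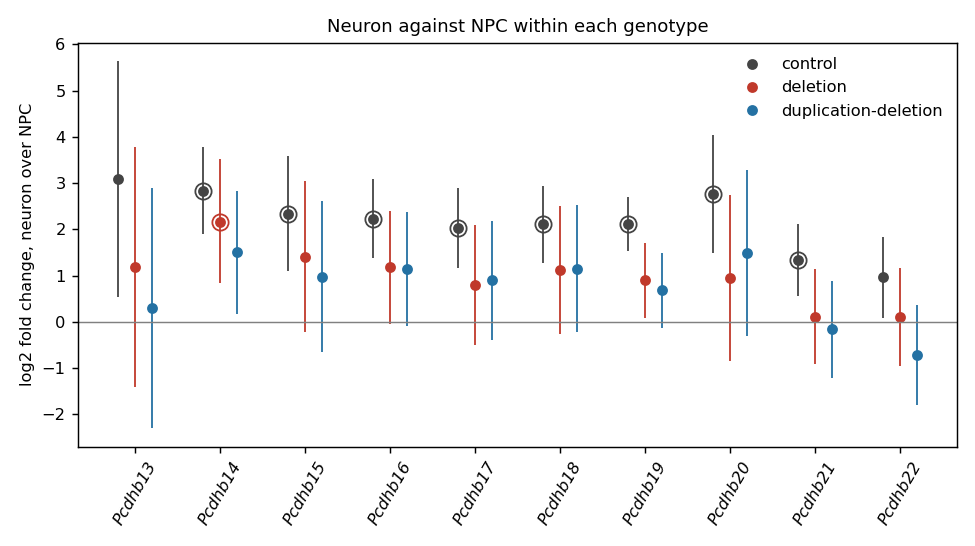
Log2 fold change of each distal Pcdhb gene from NPC to neuron, in control, deletion and duplication-deletion cells, with 95% intervals, in order along the cluster. The control values lie between 0.96 and 3.08, and the mutant values below them for each gene.

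In deletion NPCs, the distal genes stood at a summed level of 150, 204 and 72.1 CPM (142 ± 66.1, SD, n = 3), 3.37 times the control mean, and each of the 3 libraries was above the highest control library. Every member had a positive log2 fold change, from 1.15 for Pcdhb22 to 2.32 for Pcdhb13, with a median of 1.75 against 0.04 over all genes. None of the 10 passed edgeR's test after adjustment over all 16783 genes, in which 0.00596% of genes passed in either direction. With a replicate block edgeR called 1 member (Pcdhb16, 1.95, adjusted p = 0.0339), among 11 genes called in all. At an unadjusted p under 0.05, 9 of the 10 were higher, against 1.44% of all genes. DESeq2 called 6 members higher (Pcdhb16, Pcdhb17, Pcdhb18, Pcdhb19, Pcdhb21 and Pcdhb22), against 0.161% of all genes, with an adjusted p of 0.000452 for both Pcdhb17 and Pcdhb19, and limma-voom called 0 (0% of all genes). In the authors' deposited table, 5 of the 10 had an adjusted p under 0.05 (Pcdhb16, Pcdhb17, Pcdhb19, Pcdhb21 and Pcdhb22), against 0.215% of its genes.

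Pcdhb19 and Pcdhb17 had the smallest p-values. Pcdhb19 was at 27.6, 32.8 and 13.5 CPM in deletion NPCs, all above its highest control value of 10.1 CPM, and its log2 fold change was 1.63 ± 0.292 (SE, adjusted p = 0.263). Pcdhb17 was at 24.3, 34.3 and 13.3 CPM against 3.91, 5.70, 9.31, 6.22 and 2.90 CPM (2.11 ± 0.396, adjusted p = 0.263).

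Pcdhb21 was at 7.32, 11.9 and 5.90 CPM in deletion NPCs (1.5 ± 0.324, SE, adjusted p = 0.326). Pcdhb22 was at 10.8, 13 and 7.51 CPM (1.15 ± 0.276, adjusted p = 0.445). These 4 genes were the ones with no overlap between deletion and control libraries, 4 of 10 against 1.41% of all genes tested. Pcdhb16 was at 29.6, 36.9 and 12.2 CPM against 5.06, 4.22, 13.6, 7.5 and 3.24 CPM, so that the lowest deletion library fell below the highest control library (1.97 ± 0.485, adjusted p = 0.466).

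In each member the lowest deletion library was replicate 5. The 3 NPC libraries numbered 5 were the shallowest of the stage, with 19311982 to 24053970 counts against 48630461 to 78814033 in the others, and the part of this in the result was not tested. Without the libraries numbered 5, all 10 members had every deletion library above every control library, against 8.06% of all genes, and the ratio of summed levels was 3.81. The comparison of the 2 libraries numbered 5 alone gave a ratio of 2.91. Pcdhb15 was at 11.4, 10.6 and 2.07 CPM in deletion NPCs against 1.61, 1.28, 4.31, 3.60 and 0.734 CPM in control NPCs. Pcdhb20 was at 12.5, 23.9 and 3.11 CPM against 2.58, 1.33, 4.94, 5.49 and 0.618 CPM. Both show the same split between replicate 5 and the other deletion libraries. In control NPCs replicate 5 was also the lowest library for these genes and for the summed level (24.7 CPM). It was not the lowest control library for Pcdhb14 (1.12 CPM against 0.952 in replicate 2). Among duplication-deletion NPCs the sum in replicate 5 was 125 CPM, above the 106 CPM of replicate 2.

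In the remaining members replicate 5 was the lowest deletion library too, though replicate 1 was close to it in Pcdhb13. Pcdhb18 was at 21.2, 30.1 and 11.3 CPM against 3.99, 5.73, 12, 8.28 and 2.82 CPM (1.68 ± 0.437, SE). Pcdhb14 was at 4.00, 5.39 and 2.34 CPM, with a difference of 1.29 ± 0.403, and Pcdhb13 at 1.27, 4.67 and 0.882 CPM, with 2.32 ± 1.12 and an unadjusted p of 0.0606. Only this last gene missed an unadjusted p of 0.05 in the comparison.

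**Figure D4:**
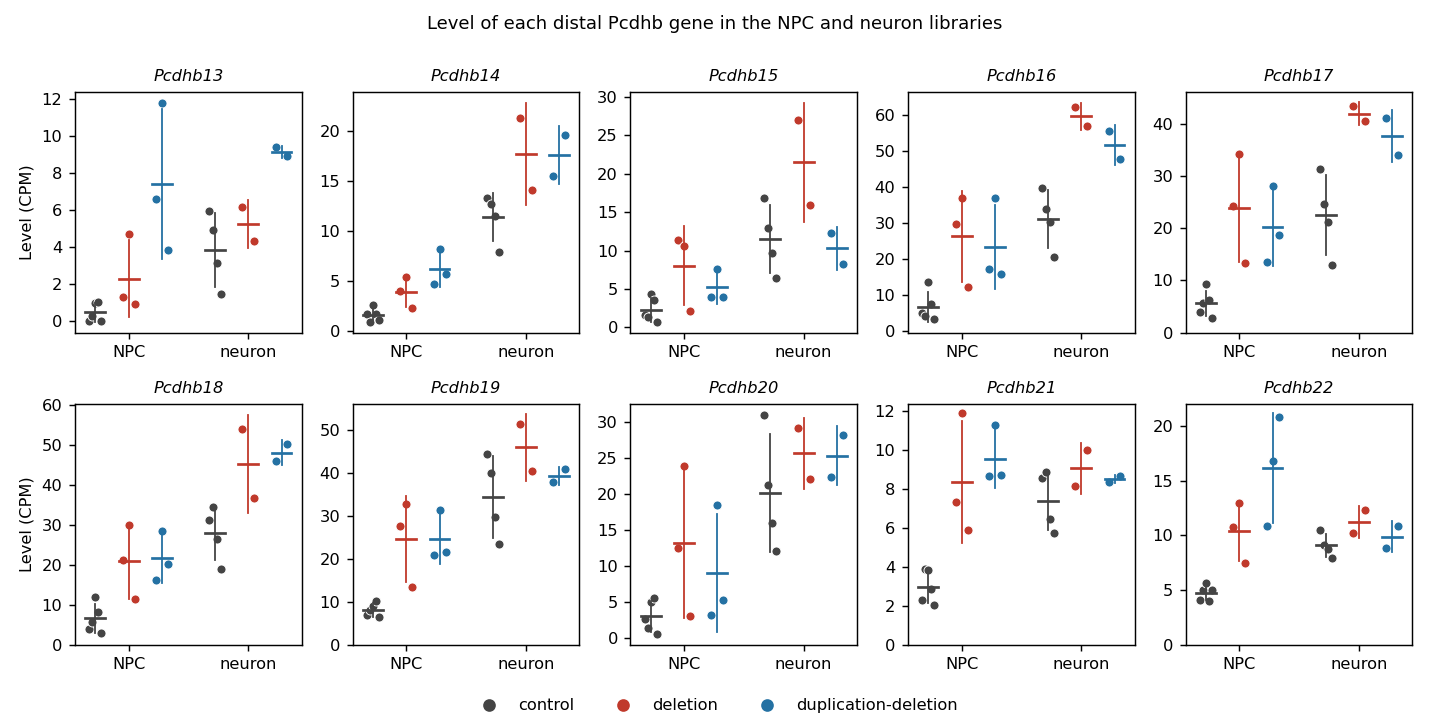
CPM of each distal Pcdhb gene in every NPC and neuron library (linear axis), by genotype, 1 panel per gene in order along the cluster. Pcdhb17, Pcdhb19, Pcdhb21 and Pcdhb22 show no overlap between control NPCs and NPCs of either mutant, and Pcdhb13 is at 0 CPM in 2 control NPC libraries.

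Duplication-deletion NPCs, which hold the interval at about control level, had almost the same summed level as deletion NPCs: 106, 199 and 125 CPM (143 ± 49.2, SD, n = 3), 3.41 times the control mean. This comparison uses the same control libraries as the one for deletion. All 10 log2 fold changes were positive, from 1.17 for Pcdhb15 to 4.01 for Pcdhb13, with a median of 1.74 against 0.01 over all genes. None of the 10 passed edgeR's test after adjustment, in which 0.0119% of all genes passed in either direction, 8 were higher at an unadjusted p under 0.05 (1.68% of all genes), and limma-voom called 0 (0.00596% of all genes). With a replicate block edgeR called 1 member (Pcdhb16, 2.23, adjusted p = 0.0472), among 2 genes called in all. DESeq2 called 5 higher (Pcdhb14, Pcdhb17, Pcdhb19, Pcdhb21 and Pcdhb22; 0.173% of all genes), with an adjusted p of 3.36e-06 for Pcdhb22. In the authors' deposited table, 7 had an adjusted p under 0.05 (these 5, Pcdhb16 and Pcdhb18; 0.199% of its genes).

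Pcdhb22 had the smallest p in this group and Pcdhb13 the largest fold change, with a wide error. Pcdhb22 was at 10.9, 16.8 and 20.9 CPM against at most 5.68 CPM in control NPCs, with a log2 fold change of 1.76 ± 0.276 (SE, adjusted p = 0.154). Pcdhb13 was at 6.56, 11.8 and 3.84 CPM against at most 1.02 CPM in control (4.01 ± 1.15, adjusted p = 1). Pcdhb14 was at 4.70, 8.16 and 5.72 CPM against at most 2.57 CPM (1.94 ± 0.403, adjusted p = 0.505).

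Of the others, 5 had log2 fold changes between 1.61 and 1.85. Pcdhb17 was at 13.6, 28.2 and 18.8 CPM (1.85 ± 0.395, SE), Pcdhb16 at 17.2, 36.9 and 15.9 CPM (1.79), and Pcdhb18 at 16.2, 28.6 and 20.2 CPM (1.72). Pcdhb21 was at 8.65, 11.3 and 8.72 CPM (1.68 ± 0.324), and Pcdhb19 at 20.8, 31.4 and 21.6 CPM (1.61 ± 0.292, adjusted p = 0.314). In each of these 5 genes replicate 4 was the highest library.

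Every duplication-deletion library exceeded every control library for 8 of the 10 members, against 1.48% of all genes tested, the exceptions being Pcdhb15 and Pcdhb20. Pcdhb15 was at 3.96, 7.65 and 3.98 CPM, which overlaps with the control libraries (1.17 ± 0.613, SE, the lowest of the 10), and Pcdhb20 at 3.26, 18.4 and 5.30 CPM (1.59 ± 0.766). Without the libraries numbered 5 the count was also 8, against 5.06% of all genes, and the ratio of sums was 3.29. The libraries numbered 5 alone gave 5.05.

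No member passed a test between the NPCs of the 2 mutants. EdgeR called 0 of the 10 between them (0.0238% of all genes), with 0 at an unadjusted p under 0.05 (4.01%), 0 with DESeq2 (0.602%) and 0 with limma-voom (0.00596%). The difference of deletion minus duplication-deletion was 0.02 for Pcdhb19 with a 95% interval of -0.71 to 0.74 on the log2 scale. It was -0.62 for Pcdhb22 (-1.3 to 0.07) and -1.69 for Pcdhb13 (-4.48 to 1.1). The intervals leave room for differences of 1 log2 unit or more in some members. Of the replicate numbers, the NPC libraries of the 2 mutants share only 5. With a replicate block the median difference over the members was -0.26, against -0.01 without it.

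**Figure D5:**
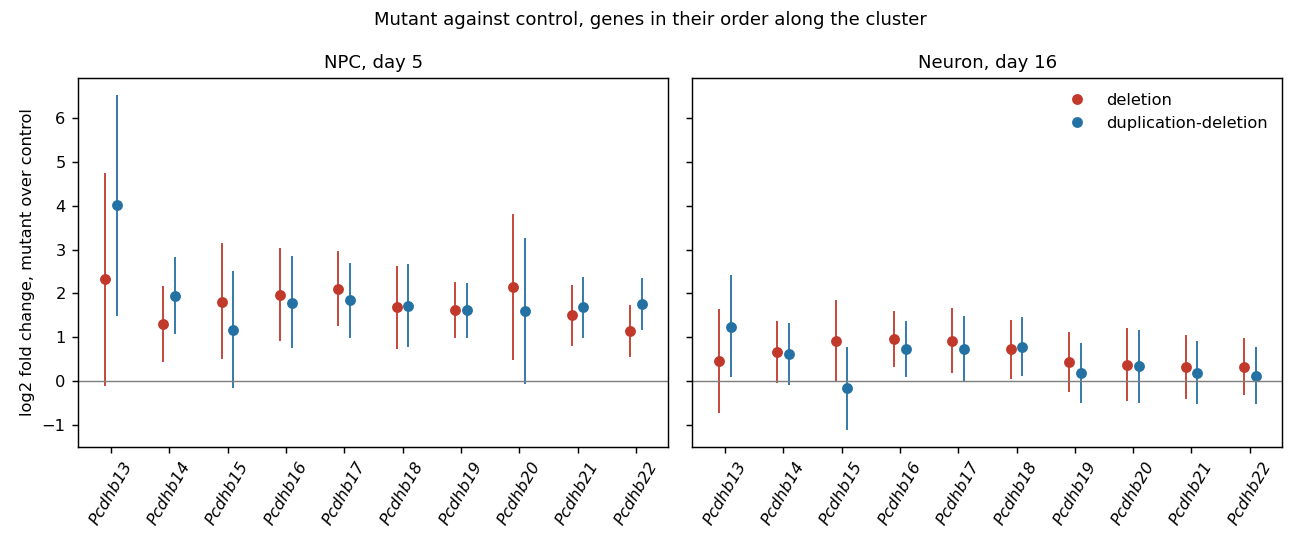
Log2 fold change of each distal Pcdhb gene against control of the same stage, for deletion and duplication-deletion cells in NPCs and neurons, with 95% intervals, in order along the cluster. All NPC values lie above 1, between 1.15 and 4.01, and the neuron values between -0.17 and 1.24.

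Markers of other cell identities were read in these NPC groups too. Of the sums given here, only that of forebrain markers in deletion NPCs lay outside the control range in every library. The summed level of the 10 pan-neuronal markers was 580 to 1330 CPM in control, 950 to 2350 in deletion and 1040 to 1950 in duplication-deletion NPCs. Of these markers, 9 of 10 had a positive log2 fold change in deletion NPCs (median 0.52) and 10 of 10 in duplication-deletion NPCs (median 0.80), and none passed the test. Over all genes, 55.6% and 51.8% were positive in these 2 comparisons. The 10 forebrain markers summed to 9.07 to 20.5 CPM in control, 23.7 to 86.6 in deletion and 13.2 to 17.1 in duplication-deletion NPCs, with 8 of 9 tested positive in deletion (median 2.72) and 5 of 9 in duplication-deletion (median 0.04). Neural crest markers summed to 9.42 to 45.2 CPM in control, 4.0 to 12.4 in deletion and 12.0 to 25.8 in duplication-deletion NPCs, with 5 of 6 negative in deletion (median -2.36) and 3 of 6 in duplication-deletion. Mesenchymal markers summed to 222 to 653, 75.1 to 239 and 407 to 612 CPM, with 5 of 6 negative in deletion (median -0.98) and 6 of 6 positive in duplication-deletion (median 0.34). The GABAergic and glutamatergic markers summed to 7.61 to 32.0, 16.4 to 101 and 17.6 to 74.3 CPM, with 3 of 4 tested positive in each mutant (medians 1.18 and 0.81). No marker of these lists passed the test or was at 0 in all libraries of an NPC group, and the cortical marker Emx1 had a mean of 0.0702 CPM in control and 0.0683 CPM in deletion NPCs. Neural progenitor markers summed to 1920 to 2410 CPM in control, 1840 to 2270 in deletion and 1710 to 2830 in duplication-deletion NPCs. Astrocyte markers summed to 43.4 to 122, 41.7 to 94.5 and 20.7 to 73.0 CPM. The part of all these lists in the result was not tested.

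In neurons the mutants stood closer to control. The summed level was 313 and 253 CPM in deletion neurons (283 ± 42.4, SD, n = 2), 1.58 times the control mean, and 257 and 258 CPM in duplication-deletion neurons (258 ± 0.211, SD, n = 2), 1.44 times. All 4 mutant libraries lay above the highest control library at 233 CPM. EdgeR called 0 of the 10 members in either comparison, in which 0% and 0.039% of all genes passed. None was called by DESeq2 (0.357% and 0.881% of all genes), by limma-voom (0% and 0.0335%) or in the authors' deposited table (0.279% and 1.15%). At an unadjusted p under 0.05, 4 were higher in deletion neurons (1.91% of all genes) and 3 in duplication-deletion neurons (3.8%).

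In deletion neurons the log2 fold changes ran from 0.31 to 0.95, with a median of 0.56. The highest was Pcdhb16, at 62.3 and 57.0 CPM against 39.6, 34.0, 30.3 and 20.4 CPM (0.95 ± 0.287, SE, adjusted p = 1). Pcdhb17 was at 43.5 and 40.5 CPM against 31.3, 24.6, 21.2 and 12.9 CPM (0.92 ± 0.332). Lower values belonged to Pcdhb19, the member with the highest level per kilobase in control neurons, at 51.6 and 40.5 CPM (0.43) and Pcdhb20 at 29.1 and 22.1 CPM against 31.0, 21.2, 16.0 and 12.1 CPM (0.37). The lowest were Pcdhb22 (0.32) and Pcdhb21 (0.31). Both deletion libraries exceeded all control libraries for 4 of the 10 members (Pcdhb14, Pcdhb16, Pcdhb17 and Pcdhb18), against 4.43% of all genes.

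In duplication-deletion neurons Pcdhb13 had the largest difference, at 9.38 and 8.90 CPM against at most 5.95 CPM (1.24 ± 0.519, SE, adjusted p = 0.683). Pcdhb18 was at 46.0 and 50.3 CPM against 31.3, 34.6, 26.5 and 19 CPM (0.78). Pcdhb15 was at 12.3 and 8.30 CPM, inside the control range of 6.48 to 16.8 CPM (-0.17). Pcdhb19, Pcdhb21 and Pcdhb22 stood near control, at 0.18, 0.19 and 0.11, and the median over the members was 0.47. Both duplication-deletion libraries exceeded all control libraries for 5 of the 10 members (Pcdhb13, Pcdhb14, Pcdhb16, Pcdhb17 and Pcdhb18), against 10.4% of all genes.

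Pcdhb15 was also the member that differed most between the mutant neurons. Deletion neurons had 27.0 and 16.0 CPM of it, above both duplication-deletion values, and the difference of 1.09 ± 0.489 (SE) had an unadjusted p of 0.0516 and an adjusted p of 0.569. Between the 2 mutants edgeR called 0 of the 10 (0.0335% of all genes), DESeq2 0 (1.37%) and limma-voom 0 (0.0112%), and 0 had an unadjusted p under 0.05 (8.85%). The deletion neuron libraries are numbered 1 and 3 and the duplication-deletion ones 2 and 4, so the mutants share no replicate number. With a replicate block the median difference over the members was -0.18, against 0.15 without it. Dopaminergic and midbrain markers summed to 327 to 398 CPM in deletion neurons, below the 609 to 855 CPM of control and the 610 to 1410 CPM of duplication-deletion neurons. Of this list, Lmx1a alone had a higher mean in deletion than in control neurons (101 against 48.7 CPM). Nr4a2 was close to control (67.4 against 71.0 CPM). The part of these differences in the neuron results was not tested.

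The ratio of neuron to NPC levels was lower in mutant cells, though the test of that difference, given next, passed for none of the members with edgeR. The summed level was 4.26 times higher in neurons than in NPCs of control cells, 2.0 times in deletion and 1.8 times in duplication-deletion cells. In deletion cells every member had a positive log2 fold change, from 0.1 for Pcdhb22 to 2.17 for Pcdhb14. EdgeR called only Pcdhb14 higher (2.17 ± 0.652, SE, adjusted p = 0.0158), 1 of 10 against 12.7% of all genes, with 2 at an unadjusted p under 0.05 (18.6%). DESeq2 called 2 higher (17.3% of all genes) and limma-voom 5 (30.6% in either direction). The edgeR call was lost without deletion NPC replicate 5 (adjusted p = 0.067), without deletion neuron replicate 1 (0.108) and without the ESC libraries numbered 3 and the NPC libraries numbered 5 (0.0575). In duplication-deletion cells edgeR called 0 of the 10 higher, against 10.6% of all genes, with 1 at an unadjusted p under 0.05 (16.4%). DESeq2 called 1 (14.3%) and limma-voom 4 (26.7% in either direction). There the values ran from -0.71 for Pcdhb22 to 1.5 for Pcdhb14. The control step came from a separate fit with 4 neuron and 5 NPC libraries, against 2 and 3 in each mutant. Its errors were smaller, for Pcdhb16 an SE of 0.401 against 0.593 in deletion cells. The counts of calls in control and mutant cells are therefore not directly comparable.

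The difference itself, the genotype effect in neurons minus that in NPCs, was negative for all 10 members in both mutants. For deletion it ran from -1.85 to -0.64 with a median of -1.11, against -0.07 over all genes. EdgeR called 0 of the 10 (0.005% of all genes), DESeq2 0 (0.025% lower) and limma-voom 0 (0.01%), and 1 member, Pcdhb19, had an unadjusted p under 0.05 (1.41% of all genes lower). For duplication-deletion it ran from -2.75 to -0.92 with a median of -1.32. EdgeR and limma-voom called 0 (0% of all genes each), 3 members had an unadjusted p under 0.05 (Pcdhb19, Pcdhb21 and Pcdhb22; 2.82% of all genes lower), and DESeq2 called Pcdhb22 (-1.68, adjusted p = 0.0451; 0.135% of all genes lower). These 2 contrasts share the control libraries with each other and with the comparisons above.

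Mutant NPCs reached the range of control neurons for some members. Their summed levels were 0.792 and 0.8 times the control neuron mean for deletion and duplication-deletion, with libraries that overlapped. Pcdhb22 in duplication-deletion NPCs (10.9, 16.8 and 20.9 CPM) was above each control neuron library (7.93 to 10.5 CPM). Per kilobase, Pcdhb17 was the highest member in NPCs of both mutants, at 7.33 CPM per kb in deletion and 6.18 in duplication-deletion. Pcdhb13 was the lowest in deletion NPCs (0.616 CPM per kb), and Pcdhb14 in duplication-deletion NPCs (1.8).

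The share of the distal genes in all Pcdhb RNA separated the libraries of the mutants, 3 per mutant in NPCs and 2 in neurons, and was not tested. It was 76.8% to 88.9% of the cluster's CPM in control NPCs, 81.4% to 85.4% in deletion NPCs and 64.0% to 68.6% in duplication-deletion NPCs. In neurons it was 72.4% to 76.7% in control, 74.6% to 79.2% in deletion and 63.1% to 64.1% in duplication-deletion libraries. The duplication-deletion libraries did not overlap with control at either stage, and the deletion libraries overlapped at both. Within the distal genes, the share of Pcdhb13 was 0.85% in control, 1.46% in deletion and 5.07% in duplication-deletion NPCs.

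The proximal Pcdhb genes make up the rest of the cluster's RNA. In deletion NPCs the 11 tested had a median log2 fold change of 1.52, close to the 1.75 of the distal members, and in duplication-deletion NPCs 2.52, above the 1.74 of the distal members, and none passed the test in either. Their summed level was 2.79 times control in deletion and 7.29 times in duplication-deletion NPCs. Pcdhb11 alone made up 35.1 of the 72.9 CPM of this sum in duplication-deletion NPCs, and 3.55 of 10.0 CPM in control NPCs. In neurons it made up 55.2 of 148 CPM in duplication-deletion cells and 15.9 of 62.4 CPM in control. The gene of smallest p was Pcdhb11 in duplication-deletion NPCs (3.3). In neurons the proximal median was 0.36 in deletion and 1.05 in duplication-deletion cells.

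Pcdha genes, which lie on the proximal side of the Pcdhb cluster, had a median log2 fold change of 1.37 in deletion NPCs (13 of 14 positive) and 3.00 in duplication-deletion NPCs, where Pcdha10 had the smallest p (6.49). Of the Pcdhg genes, on the distal side, 7 of 22 were positive in deletion NPCs (55.6% of all genes were), with a median of -0.67, and Pcdhgb2 fell (-3.37, adjusted p = 0.0235). In duplication-deletion NPCs 18 of 22 were positive (51.8% of all genes), with a median of 0.24. The 6 genes between or beside the clusters had medians of 0.06 and -0.05 in the 2 mutants, none past the test.

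Along control differentiation the wider cluster moved in the direction of the distal genes in part. From ESC to NPC, 9 of 11 proximal Pcdhb genes and 8 of 14 Pcdha genes rose, and of 22 Pcdhg genes 13 rose and 2 fell, beside 21.0% of all genes that rose and 20.5% that fell. From NPC to neuron, 9 of 11 proximal Pcdhb genes, 9 of 14 Pcdha genes and 11 of 22 Pcdhg genes rose, beside 23.2% of all genes.

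Genes known to act on clustered protocadherin promoters were read beside these values. From ESC to NPC in control cells, 3 of 24 rose and 6 fell, beside 21.0% and 20.5% of all genes, with Tet1, a methylcytosine dioxygenase, at -4.33 and Rest, a repressor of neuronal genes, at -2.33. From NPC to neuron 3 rose and 14 fell, beside 23.2% and 20.5% of all genes, with the cohesin regulator Pds5a at -2, the maintenance methyltransferase Dnmt1 at -1.58 and the silencing protein Smchd1 at -1.27. Between genotypes none of the 24 passed the test in NPCs. Their median was 0.13 in deletion NPCs, where Dnmt3a, a de novo methyltransferase, had the smallest p (0.54), and -0.06 in duplication-deletion NPCs, where the H3K9 methyltransferase Setdb1 did (0.65).

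The members varied together between libraries of a group. Over the 11 NPC libraries, the 45 pairs of members had correlations of their deviations from group means from 0.211 (Pcdhb13 with Pcdhb22) to 0.978 (Pcdhb17 with Pcdhb18), with a median of 0.802. Neighbours on the chromosome had a median of 0.87 and other pairs 0.793. Over the 8 neuron libraries the correlations ran from 0.198 (Pcdhb15 with Pcdhb22) to 0.998 (Pcdhb16 with Pcdhb17), with a median of 0.819 and all 45 above 0. The points share libraries, scaling and sequence similarity between the genes, and these values are a description.

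Genes outside the members with the most similar pattern depended on the libraries used. Over all 28 libraries, where the step out of the ESC state dominates, the highest correlations of log2 CPM with the members' sum among 14656 genes belonged to Astn1 (0.975), Slc8a1 (0.972), Cxxc4 (0.97), Thsd7a (0.969), Scg3 (0.968), Grik2 (0.968), Olfml3 (0.967) and Cdk14 (0.967). Astn1 encodes a neuronal adhesion protein, Slc8a1 a sodium-calcium exchanger, Scg3 a secretory granule protein and Grik2 a kainate receptor subunit. Over the 19 NPC and neuron libraries, among 14277 genes, they belonged to Pcdhb10 (0.957), Pcdhb7 (0.946), Pcdhb12 (0.943), 9430083A17Rik (0.908), Pcdhb6 (0.906), 8430419L09Rik (0.903), Pcdhb11 (0.901) and Pcdha9 (0.9). There 10 of the 11 proximal Pcdhb genes examined were among the 100 highest, against 2 of 10 over all 28 libraries.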

How the data were processed

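RNA-seq libraries of 3 genotypes at 3 stages were used. The authors deposited expected counts per gene, neither scaled nor log-transformed, for which the submitters' processing notes name STAR 2.6.0c, RSEM 1.3.0 and mm9; strand use in counting is not given in the sources used here. The authors' deposited table also holds log2 fold changes with standard errors, and p-values with adjusted p-values, of each mutant against control, from DESeq2 1.22.2 per the same notes. Rounding came first, and 92 of the 29968 entries, all spike-ins, were dropped. Of 33 replicate pairs, 0 were identical.

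Genes were tested with edgeR 4.0.16 (R 4.3.3): TMM scaling, filterByExpr by group with a minimum count of 10, robust quasi-likelihood fits, two-sided, Benjamini-Hochberg adjustment over all genes of a comparison, threshold 0.05. Each stage had 1 fit over its 3 genotypes, the control stages a fit of their own, and mutant stage contrasts and differences of effects between stages a fit of all 28 libraries. The filter left 16470 genes (ESC), 16783 (NPC), 17931 (neuron), 18365 (control stages) and 19996 (all libraries). CPM used TMM-scaled library sizes over the 28 libraries, and log2 CPM a prior count of 2. Levels between genes used the deposited lengths. Fold bounds used plain library totals, and their intervals and floors cover counting error only. Alternatives were DESeq2 1.42.0, limma-voom (limma 3.58.1), RLE scaling, no filter, a replicate block, plain totals and left-out libraries. Scripts were tested on simulated data.

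The members and gene lists were chosen with earlier results of these data known. Naming all 10 members in each comparison was planned, but some are left out of the text. Of each other protocadherin, neighbour or regulator list, the plan was up to 3 genes of smallest p among those called, or else the 1 of smallest p. The 8 genes of highest correlation with the members' sum at mean CPM of at least 1 are named too. Some named values of these lists are left out for length. No sequence is printed. The Hi-C samples of the series are not analysed here.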

Additional observations from a re-analysis of the deposited data

How the results depend on the processing

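Same-numbered NPC and neuron libraries deviated together in part, with 5 of 7 and 3 of 4 pairs at a correlation over 0.1. Their correlations ran from -0.031 to 0.485 in NPCs and from 0.0819 to 0.504 in neurons. Differently numbered pairs ran from -0.386 to 0.23 and from -0.504 to 0.403. The numbers were not taken as pairs in the main fits, and the block was an alternative. In ESCs, where 9 of 9 pairs were over 0.1, no member passed the filter with or without the block. With the replicate block, 1 member was past the threshold in deletion NPCs (Pcdhb16, 1.95, adjusted p = 0.0339) and 1 in duplication-deletion NPCs (Pcdhb16, 2.23, 0.0472), 7 in control neurons against NPCs (7128 of all genes against 8023 without it), where Pcdhb21 was lost (1.23, 0.0564), and the Pcdhb13 call in control NPCs against ESCs was lost too (7.43, 0.068). The median from NPC to neuron in duplication-deletion cells was 0.68 with the block. In ESCs Pcdhb14 passed the filter without some libraries and was not called.

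DESeq2 called 6 members in deletion NPCs and 5 in duplication-deletion NPCs (0.161% and 0.173% of all genes higher). In neurons against NPCs it called 2 in deletion and 1 in duplication-deletion cells (17.3% and 14.3% of all genes higher). It called 1 in the duplication-deletion difference between stages (0.135% of all genes lower). Limma-voom called 5 and 4 in the 2 mutant steps to neurons (30.6% and 26.7% of all genes in either direction). Without the shallow libraries (ESC replicate 3 and NPC replicate 5) the deletion step had 0 calls. The count of members whose deletion NPC libraries all exceeded control went from 4 to 10 without the libraries numbered 5. The share of all genes went from 1.41% to 8.06%, since fewer libraries separate more easily. This comparison was chosen after seeing the data. Leaving out each library in turn gave 0 to 1 calls for the deletion step to neurons, with a median of 0.71 to 1.49. The median was 0.74 to 1.29 for the duplication-deletion step, -1.52 to -1.0 for its difference between stages and 6.39 to 7.96 for control NPCs against ESCs. The last was 6.17 with DESeq2 and 6.1 with limma-voom. With plain totals the duplication-deletion neuron sum was 298 CPM against 258. All 170 alternative values of the members were positive in each NPC comparison with control, and all 200 were negative in each difference between stages. Against control, 130 of 130 were positive in deletion neurons and 119 of 130 in duplication-deletion neurons. Between the mutants, 72 of 170 were positive in NPCs and 95 of 130 in neurons. The refits share most libraries and the members varied together, so these counts are not independent checks.

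Over all genes, edgeR, DESeq2 and the replicate block called 1, 93 and 11 in deletion NPCs, 2, 49 and 2 in duplication-deletion NPCs and 4, 101 and 2 between them. In neurons they called 0, 64 and 13, then 7, 158 and 40, and 6, 246 and 21. In ESCs they called 0, 7 and 9, then 0, 4 and 7, and 0, 18 and 13. TPM per library could not be run as an alternative level. Depth limits the ESC values, at 0 to 35 counts per library for the 10 genes together.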
